A study of Mus musculus with 16 samples.

Results

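The cholinergic interneuron genes described here are Chat, Slc5a7, Slc18a3, Slc17a8, Lhx8 and Ache, 6 of the 24421 gene symbols counted in mouse striatum. They were chosen by name, as genes that make, load, recycle or break down acetylcholine or that mark the neurons doing so. Earlier results of these data were known when they were chosen, which limits the p-values of single members too. All 6 passed the filter on low counts and were tested among 13563 genes. RNA was sequenced from the striatum of 16 mice aged 13 months, 4 in each of 4 groups. BACHD+Foxp2 mice carried the BACHD transgene, a bacterial artificial chromosome with mutant human huntingtin that models Huntington disease, and were injected with a Foxp2 virus. BACHD+Con mice carried the same transgene and were injected with a control virus. Con+Foxp2 mice had the control genotype and the Foxp2 virus, and Con+Con mice the control genotype and the control virus. All groups were thus injected with a virus. No source used here gives the virus type, its promoter, the cells it enters or the time from injection to harvest.

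Cholinergic interneurons are a small class of large, tonically active striatal neurons and the main source of acetylcholine within the striatum. They take up choline, join it to an acetyl group, load the product into vesicles and release it onto projection neurons and other interneurons, where acetylcholinesterase ends the signal. Their dense output shapes how projection neurons respond to cortical and dopamine signals. Foxp2, the delivered gene, encodes a forkhead transcription factor made in striatal projection neurons.

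Each library held 2660395 to 3669748 reads in genes. Levels are given in CPM (reads of a gene scaled to a common library total, with TMM factors). On this scale 3 reads in a library corresponded to 0.819 CPM (Con+Foxp2 mouse 4) to 1.16 CPM (BACHD+Con mouse 4). Reads have no molecular identifiers, so counting errors cover counting only. Foxp2 stood at 1595 ± 288 CPM in BACHD+Foxp2 and 119 ± 28.6 CPM in BACHD+Con mice. In Con+Foxp2 mice it stood at 4015 ± 431 CPM, against 118 ± 26.7 CPM in Con+Con mice (SD, n = 4 each), so every virus label was matched by the delivered gene. As a check of the tissue, all 18 genes of a striatal projection neuron list were detected well enough to be tested, and summed to 5662 to 10996 CPM per library. The level of 14 cortical neuron markers varied among libraries, with a mean log2 CPM of 3.38 to 6.44. The 3 libraries lowest in it (BACHD+Con mice 2 and 3 and Con+Con mouse 4) all came from control virus mice. Results are therefore also given without these 3.

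Averaged over both genotypes, all 6 genes had a lower estimate with the Foxp2 virus, beside 50.5% of all tested genes, and 3 of the 6 were called lower. The 3 called were Chat, the acetylcholine-making enzyme, Slc17a8, a vesicular glutamate transporter of these neurons, and Slc5a7, the choline transporter. Over all tested genes 86, or 0.634%, were called lower in the same comparison at an adjusted p under 0.05 in edgeR's quasi-likelihood test, and none of the 6 was called higher, against 0.42% of all genes. The median log2 fold change of the 6 genes was -1.48, beside -0.0027 over all tested genes. This median was not tested, because the members were chosen with earlier results of these data known. In bulk tissue, fewer cholinergic cells and less RNA per cholinergic cell cannot be told apart. When the 3 libraries low in cortical markers were left out, edgeR called 0 of the 6 genes, 4 had an unadjusted p under 0.05, and the log2 fold changes were -1.14 for Chat, -1.42 for Slc17a8 and -1.45 for Slc5a7. DESeq2, run on all 16 libraries, called 3 of the 6 lower (Chat, Slc17a8 and Slc18a3), beside 1.02% of the 13563 genes.

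**Figure D1:**
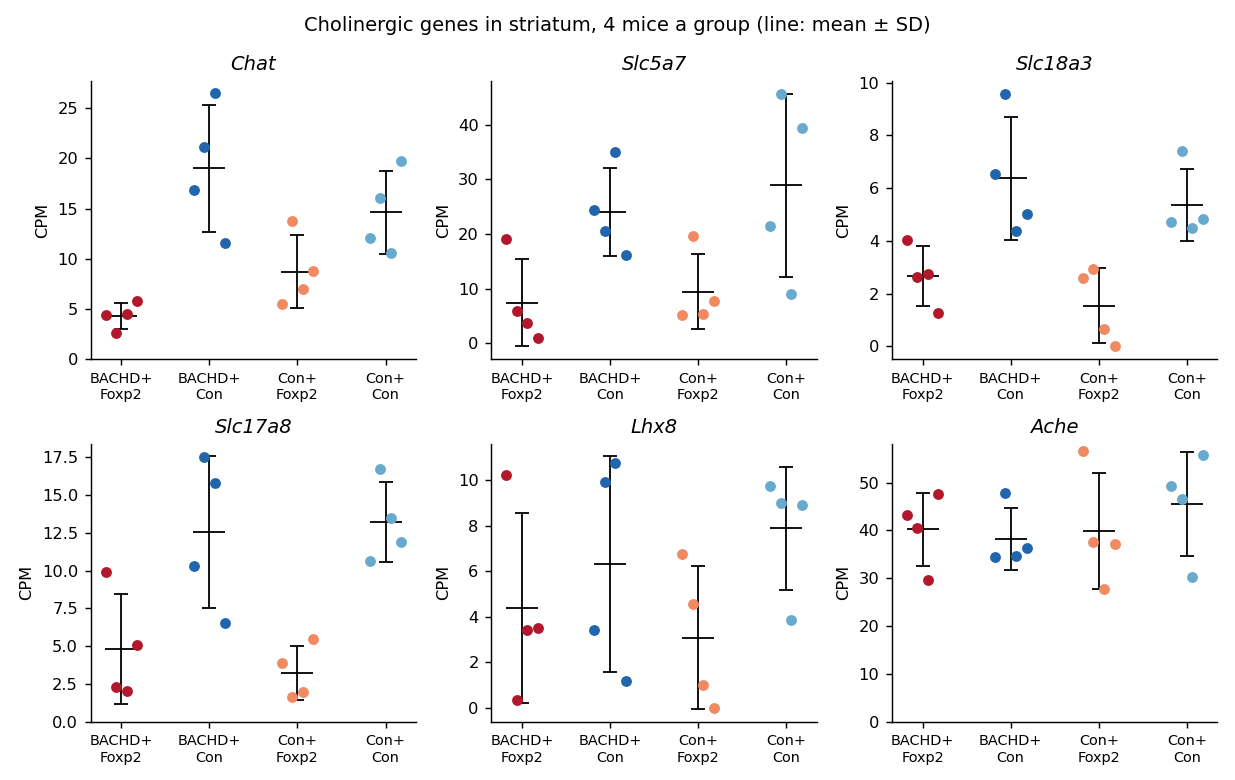
CPM of each cholinergic gene in every mouse (points), with the mean and SD of each group of 4 mice (lines), on linear axes with a scale of its own for each gene. For Slc18a3 all 8 Foxp2 virus mice, at up to 4.02 CPM, lay below all 8 control virus mice, at 4.37 CPM or more, whereas for Ache the 4 groups overlapped.

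Chat encodes choline acetyltransferase, the enzyme that makes acetylcholine and the defining marker of cholinergic neurons. Its gene (ENSMUSG00000021919.8) lies on the minus strand at chr14:32408203-32465989 (GRCm38, GENCODE M21). In BACHD+Foxp2 mice 1 to 4 it had 4.39, 2.62, 4.47 and 5.74 CPM, against 16.8, 21.1, 26.5 and 11.6 CPM in BACHD+Con mice 1 to 4. In Con+Foxp2 mice it had 5.47, 13.7, 6.96 and 8.74 CPM, against 12.1, 16.1, 10.6 and 19.7 CPM in Con+Con mice. The BACHD groups did not overlap, and the highest BACHD+Foxp2 mouse was below every control virus mouse. In the control genotype, Con+Foxp2 mouse 2 reached into the range of Con+Con mice.

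Chat thus stood at 4.31 ± 1.28 CPM in BACHD+Foxp2 and 19.0 ± 6.36 CPM in BACHD+Con mice (SD, n = 4 each). That is a 4.39-fold fall (log2 fold change -2.13, SE 0.37, edgeR adjusted p = 0.00845), in a comparison that called 0.155% of all genes lower. The call was lost without BACHD+Con mouse 3, the library with the most Chat (log2 fold change -1.92, adjusted p = 0.0698), when the 3 libraries low in cortical markers were left out (-1.72, adjusted p = 0.313) and with voom (-2.11, adjusted p = 0.0693). Leaving out those 3 libraries kept only BACHD+Con mice 1 and 4 as the reference. It removed BACHD+Con mice 2 and 3, those with the most Chat in that group. In control mice Chat stood at 8.73 ± 3.60 CPM with the Foxp2 virus and 14.6 ± 4.11 CPM with the control virus, a log2 difference of -0.74 (SE 0.35) that did not pass the test (adjusted p = 0.694). Over both genotypes, the 8 Foxp2 virus libraries held 163 Chat reads and the 8 control virus libraries 399. The averaged fall was 2.71-fold (log2 fold change -1.44, SE 0.26, edgeR adjusted p = 0.00336). It passed when any 1 of the 16 libraries was left out, with adjusted p between 0.00192 and 0.0141, and the exact permutation p within genotypes was 0.00122.

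Since Chat was the member with the smallest p for the averaged fall, the sequence before its start is printed (170 bases outside exons, RefSeq, GRCm38.p6, chr14:32465990-32466159, minus strand, 5′ to 3′). No letters are in capitals, because neither the forkhead letters TGTTTAC nor the homeodomain letters TAATTA occurred on either strand of this window.
Chat: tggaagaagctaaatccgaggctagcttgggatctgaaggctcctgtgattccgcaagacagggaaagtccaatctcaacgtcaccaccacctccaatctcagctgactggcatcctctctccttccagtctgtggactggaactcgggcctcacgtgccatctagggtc

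Slc18a3 encodes the vesicular acetylcholine transporter, which loads acetylcholine into synaptic vesicles. It sits inside the Chat gene, on the same strand at chr14:32462438-32464850, an arrangement known as the cholinergic gene locus, and shares 0 exon bases with Chat in GENCODE M21. Its counts were low, with 11, 8, 8 and 4 reads in BACHD+Foxp2 mice 1 to 4, against 19, 29, 13 and 13 reads in BACHD+Con mice. Con+Foxp2 mice had 8, 9, 2 and 0 reads, against 16, 23, 14 and 13 reads in Con+Con mice. The library at 0 was the deepest of the 16, where 3 reads would be 0.819 CPM.

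Neither genotype showed an overlap for Slc18a3, and over both genotypes all 8 Foxp2 virus mice were below all 8 control virus mice in CPM, as was the case for 0.17% of all tested genes in this direction. Within each genotype, 2.36% of all genes in BACHD and 2.29% in control mice were likewise lower without overlap. Slc18a3 stood at 2.67 ± 1.12 CPM in BACHD+Foxp2 and 6.37 ± 2.32 CPM in BACHD+Con mice. In Con+Foxp2 mice it stood at 1.55 ± 1.44 CPM, against 5.36 ± 1.36 CPM in Con+Con mice (SD, n = 4 each). The averaged difference of -1.52 on the log2 scale (SE 0.48) did not pass edgeR's test (adjusted p = 0.168) but passed that of DESeq2 (adjusted p = 0.0291). The exact permutation p within genotypes was 0.000408, the smallest this design can give.

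Slc5a7 encodes the high-affinity choline transporter, which returns choline from the synapse to the cholinergic terminal and limits the rate of acetylcholine synthesis (chr17:54273590-54299034, minus strand). It had 19.0, 5.89, 3.78 and 0.957 CPM in BACHD+Foxp2 mice 1 to 4, against 24.4, 20.5, 34.9 and 16.2 CPM in BACHD+Con mice. Con+Foxp2 mice 1 to 4 had 5.15, 19.6, 5.30 and 7.64 CPM, against 21.5, 45.7, 9.0 and 39.4 CPM in Con+Con mice. BACHD+Foxp2 mouse 1 and Con+Foxp2 mouse 2 were within the control virus range, while the other 6 Foxp2 virus mice lay below 9.0 CPM, the lowest control virus value.

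Slc5a7 averaged 8.42 ± 7.0 CPM in the 8 Foxp2 virus mice and 26.5 ± 12.4 CPM in the 8 control virus mice, a 3.17-fold fall (log2 fold change -1.66, SE 0.40, edgeR adjusted p = 0.0424). The call was lost when any 1 of 10 libraries was left out (BACHD+Foxp2 mice 2, 3 and 4, BACHD+Con mice 1 and 3, Con+Foxp2 mice 1, 3 and 4, and Con+Con mice 2 and 4), with adjusted p between 0.0629 and 0.121. DESeq2 gave an adjusted p of 0.0599, and the exact permutation p within genotypes was 0.00367. Its log2 fold changes of -1.71 (SE 0.58) in BACHD and -1.61 (SE 0.56) in control mice were close, and neither passed alone (adjusted p = 0.388 and 0.424). Among mice of a group Slc5a7 varied by 19.8 times the variance that counting alone gives, beside 3.75 times for Chat, a ratio that grows with the read count.

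The stretch before the Slc5a7 start is shown as that of another member called lower in the averaged comparison (250 bases, RefSeq, GRCm38.p6, chr17:54299035-54299284, minus strand, 5′ to 3′). It held neither set of letters.
Slc5a7: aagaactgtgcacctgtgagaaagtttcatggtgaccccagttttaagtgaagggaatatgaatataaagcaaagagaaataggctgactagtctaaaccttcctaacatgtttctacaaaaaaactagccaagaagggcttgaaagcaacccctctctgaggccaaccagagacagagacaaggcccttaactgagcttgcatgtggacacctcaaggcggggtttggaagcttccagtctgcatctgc

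Slc17a8 encodes VGLUT3, a vesicular glutamate transporter through which striatal cholinergic interneurons also release glutamate and which speeds the loading of acetylcholine (chr10:89574020-89621253, minus strand). It had 9.88, 2.29, 2.06 and 5.10 CPM in BACHD+Foxp2 mice 1 to 4, against 10.3, 17.5, 15.8 and 6.55 CPM in BACHD+Con mice. The Con+Foxp2 mice had 3.86, 1.64, 1.99 and 5.46 CPM, against 10.6, 16.7, 13.5 and 11.9 CPM in Con+Con mice. The control genotype groups did not overlap. In BACHD mice only BACHD+Foxp2 mouse 1 lay above the lowest BACHD+Con mouse.

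Slc17a8 averaged 4.04 ± 2.78 CPM with the Foxp2 virus and 12.9 ± 3.74 CPM with the control virus (SD, n = 8 each). The fall was 3.22-fold (log2 fold change -1.69, SE 0.34, edgeR adjusted p = 0.0110) and passed whichever library was left out, at adjusted p between 0.00346 and 0.0330. The exact permutation p within genotypes was 0.000816. In control mice alone it was 3.99-fold (log2 fold change -2.0, SE 0.49) and did not pass edgeR's test (adjusted p = 0.115), whereas DESeq2 gave 0.0127 and edgeR without the filter on low counts 0.0386. In BACHD mice the log2 difference was -1.38 (SE 0.48, adjusted p = 0.419).

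RefSeq gives Slc17a8 a pair of starts, and the window at the inner one was the only member window with a match to either set of letters. It is shown for that reason, with the forkhead letters (GTAAACA, the other strand of TGTTTAC) and the homeodomain letters TAATTA in capitals (250 bases in an intron of Slc17a8, GRCm38.p6, chr10:89599816-89600065, minus strand, 5′ to 3′). A second forkhead match lay 22 bases after the start, outside the printed bases.
Slc17a8 inner start: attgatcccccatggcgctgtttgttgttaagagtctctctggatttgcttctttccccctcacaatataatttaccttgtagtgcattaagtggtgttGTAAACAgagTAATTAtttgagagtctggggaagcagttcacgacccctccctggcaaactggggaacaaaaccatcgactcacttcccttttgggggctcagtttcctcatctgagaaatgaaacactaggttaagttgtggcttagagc

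Of all 32851 RefSeq windows of this length, which reach from 250 bases before to 50 after a start, 3.65% held the forkhead letters and 5.29% the homeodomain letters, on either strand. The windows of Chat, Slc5a7, Slc18a3, Lhx8 and Ache and the outer Slc17a8 window held neither. These are matches of letters, not sites.

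Lhx8 encodes a LIM homeodomain transcription factor needed for forebrain cholinergic neurons to form, and is kept on in the adult striatal ones (chr3:154306294-154330659, minus strand). It had 10.2, 0.327, 3.44 and 3.51 CPM in BACHD+Foxp2 mice 1 to 4, against 3.44, 9.91, 10.7 and 1.16 CPM in BACHD+Con mice. Values were 6.76, 4.58, 0.994 and 0 CPM in Con+Foxp2 mice, against 9.74, 9.01, 3.86 and 8.93 CPM in Con+Con mice. The groups overlapped in both genotypes, and single mice of 1 group differed by as much as the groups did. The averaged log2 difference was -0.95 (SE 0.58) and did not pass (edgeR adjusted p = 0.596, exact permutation p = 0.0947). Without the 3 libraries lowest in cortical markers it was -0.20.

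Ache encodes acetylcholinesterase, which breaks acetylcholine down at the synapse, and is made by many neurons besides cholinergic ones (chr5:137287519-137294466, plus strand). It had 43.2, 40.6, 29.6 and 47.5 CPM in BACHD+Foxp2 mice 1 to 4, against 34.4, 47.9, 34.6 and 36.2 CPM in BACHD+Con mice. In Con+Foxp2 mice it had 56.7, 37.6, 27.8 and 37.1 CPM, against 49.3, 46.6, 30.2 and 55.8 CPM in Con+Con mice. All groups overlapped. Ache averaged 40.0 ± 9.37 CPM with the Foxp2 virus and 41.9 ± 9.14 CPM with the control virus (SD, n = 8 each), a log2 difference of -0.06 (SE 0.16, edgeR adjusted p = 0.933). With 988 reads over the Foxp2 virus libraries and 998 over the control virus libraries, Ache was the member with the smallest standard error, and the sign of its difference turned under 3 alternatives and when any 1 of 3 libraries was left out (Con+Foxp2 mouse 3, BACHD+Con mouse 2 and BACHD+Foxp2 mouse 3).

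**Figure D2:**
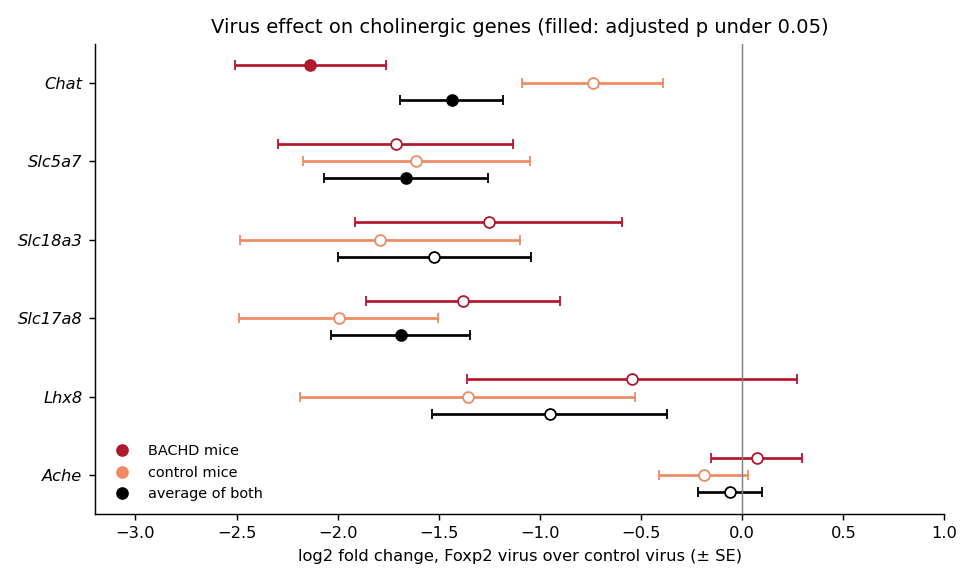
Log2 fold change of the Foxp2 virus over the control virus, with its standard error, for each cholinergic gene in BACHD mice, in control mice and as the average of both, from edgeR's fit of 16 libraries. Filled points have an adjusted p under 0.05: Chat in BACHD mice (-2.13) and the averages of Chat (-1.44), Slc5a7 (-1.66) and Slc17a8 (-1.69).

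In BACHD mice 1 of the 6 genes was called for the virus effect, namely Chat, beside 0.155% of all genes called lower, and the other 5 had log2 differences from -1.71 (Slc5a7) to 0.07 (Ache). In control mice 0 of the 6 were called by edgeR, beside 0.229% of all genes in either direction. At an unadjusted p under 0.05 edgeR had 955 genes there, 4 of the 6 members among them (Chat, Slc5a7, Slc18a3 and Slc17a8), and DESeq2 called Slc17a8. Whether the virus effect differed between genotypes was tested as an interaction. For Chat it was -1.40 on the log2 scale (SE 0.51, unadjusted p = 0.0114, adjusted p = 1.00), so the larger fall in BACHD mice is not shown to differ from that in control mice. For the other 5 genes the interaction lay between -0.10 (Slc5a7) and 0.81 (Lhx8). The test called 0 members and 0% of all genes, with 516 genes at an unadjusted p under 0.05 and 4 genes called by DESeq2, no member among them. Foxp2 itself stood at 1595 CPM in BACHD+Foxp2 and 4015 CPM in Con+Foxp2 mice, so the interaction cannot separate genotype from Foxp2 level.

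BACHD mice and control mice given the same virus were compared next. Under the Foxp2 virus, Foxp2 itself ran from 1291 to 1929 CPM in BACHD+Foxp2 and from 3500 to 4389 CPM in Con+Foxp2 mice. Genotype and Foxp2 level cannot be told apart there. Under the control virus the members differed by -0.31 (Lhx8) to 0.38 (Chat) on the log2 scale, and 0 of 6 were called, beside 0.0147% of all genes and 466 genes at an unadjusted p under 0.05 in edgeR. DESeq2 called 3 genes there. Chat, for example, stood at 19.0 ± 6.36 CPM in BACHD+Con and 14.6 ± 4.11 CPM in Con+Con mice (SD, n = 4 each). Under the Foxp2 virus, 0 of 6 members and 0.059% of all genes were called, with 567 genes at an unadjusted p under 0.05 and 15 called by DESeq2. The member with the smallest p there was Chat, with 4.31 ± 1.28 CPM in BACHD+Foxp2 and 8.73 ± 3.60 CPM in Con+Foxp2 mice (log2 difference -1.01, SE 0.38, unadjusted p = 0.0136, adjusted p = 0.998). Averaged over both viruses, the genotype differences ran from -0.31 (Chat and Slc5a7) to 0.52 (Slc18a3) with 0 of 6 called, beside 0.0369% of all genes, 549 at an unadjusted p under 0.05 and 9 called by DESeq2. This average includes the comparison under the Foxp2 virus, so genotype and Foxp2 level cannot be told apart in it either. The genotype comparisons share groups with those of the virus.

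The authors' deposited table for the Foxp2 virus in BACHD mice lists Chat at a log2 fold change of -0.97 with an adjusted p of 0.000661, and 45 genes under 0.05. In the authors' deposited table for control mice Slc17a8 stands at -0.88 with an adjusted p of 0.00404 and Slc5a7 at -0.66 with 0.0836, among 111 genes under 0.05. For these genes the folds in the authors' deposited tables are smaller than those computed here from the counts, on the same log2 scale. The standard error is smaller too, at 0.20 for Chat in BACHD mice, beside 0.37 here. The deposited values are from DESeq2 and those here from edgeR, so they are not like estimates. The reason for the difference was not tested.

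Levels of different genes were compared per kilobase of their exons. Ache was the highest member in all 4 groups, at 8.70 ± 1.65 CPM per kilobase in BACHD+Foxp2, 8.28 ± 1.40 in BACHD+Con, 8.61 ± 2.62 in Con+Foxp2 and 9.84 ± 2.35 in Con+Con mice (SD, n = 4 each). In Con+Con mice the order then ran from Slc5a7 (5.12 ± 2.97) through Lhx8 (3.11 ± 1.07), Chat (3.11 ± 0.873) and Slc17a8 (2.79 ± 0.559) to Slc18a3 (2.22 ± 0.565), and the ranges over mice of neighbours in this order overlapped. Chat was lowest of the 6 in BACHD+Foxp2 mice, at 0.915 ± 0.273, and below only Ache and Slc5a7 in BACHD+Con mice, at 4.04 ± 1.35. Slc5a7, Slc18a3, Slc17a8 and Lhx8 lay between 1.02 and 1.73 CPM per kilobase in BACHD+Foxp2 mice, with overlapping ranges. The order depends on the length used: per kilobase of the longest transcript, Chat was at 1.51 in BACHD+Foxp2 mice, where Slc17a8, at 1.08, was lowest, and at 6.65 in BACHD+Con mice, above Slc5a7 at 4.63.

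The cortical marker level was set against each member. Over the 16 libraries, with group means removed, Chat was lower where the 14 cortical markers were higher (Pearson r = -0.83, permutation p = 0.00016, adjusted over the 6 relations computed 0.00096, Spearman rho = -0.82, permutation p = 0.00085, adjusted 0.0042). Without the 2 libraries farthest from the median it was still -0.77. Lhx8 had r = -0.66 (permutation p = 0.00367, adjusted 0.0110) and rho = -0.76 (permutation p = 0.0014, adjusted 0.0042), and r = -0.68 without the 2 farthest. Slc5a7 had r = -0.50 (permutation p = 0.0210, adjusted 0.0419), but its rho of -0.49 missed the threshold (permutation p = 0.0517, adjusted 0.0775), and r was -0.44 without the 2 farthest. Ache had r = -0.49 (permutation p = 0.0657) and rho = -0.58 (permutation p = 0.0337). For Slc17a8, r was -0.34 (permutation p = 0.173) and rho -0.46 (permutation p = 0.0935), and for Slc18a3, r was -0.27 (permutation p = 0.270) and rho -0.30 (permutation p = 0.255). In these 3 genes no adjusted permutation p passed, the lowest being 0.0674.

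**Figure D3:**
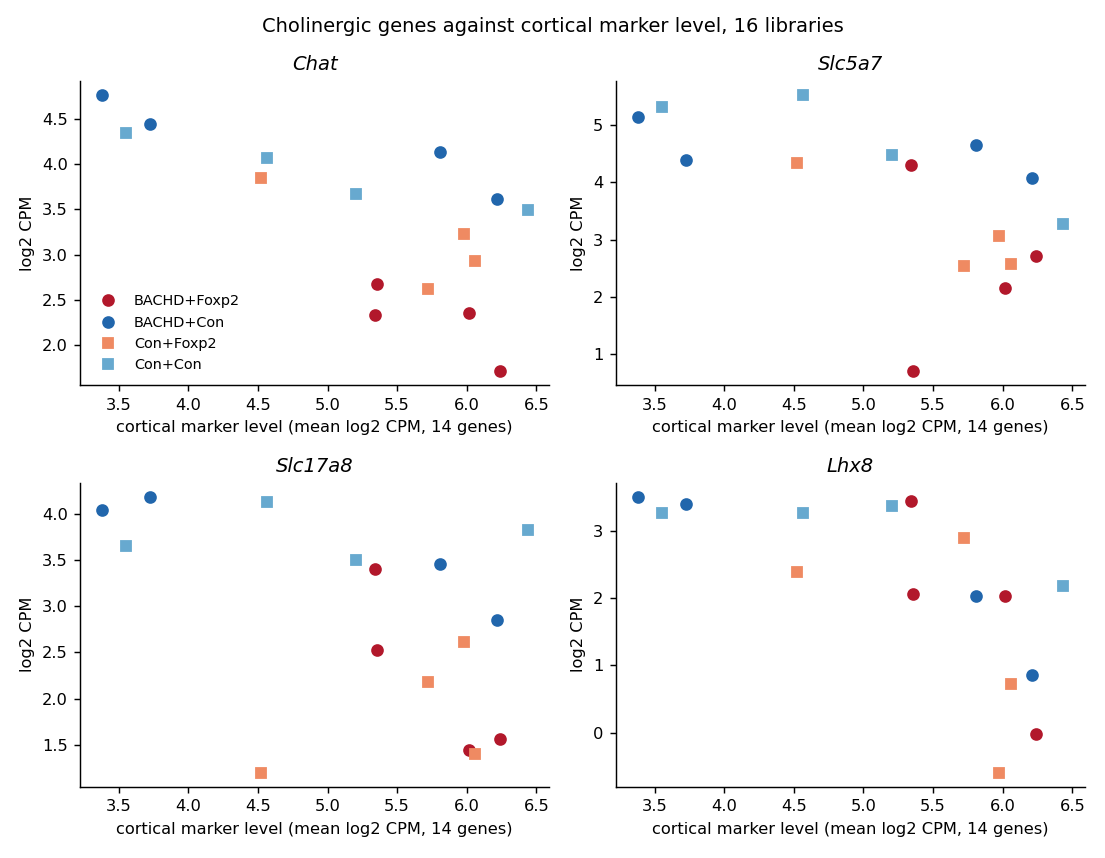
Log2 CPM of Chat, Slc5a7, Slc17a8 and Lhx8 against the mean log2 CPM of 14 cortical markers, 1 point per library, with colour and shape for the group. The 3 libraries below a cortical level of 4 are all from control virus mice, and Chat lies lower at higher cortical levels (r = -0.83 with group means removed).

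Of these 14 cortical genes 11 were higher with the Foxp2 virus averaged over genotypes, with a median log2 fold change of 0.58, and the only call was Lamp5, an interneuron and upper layer marker, which fell (-0.74, adjusted p = 0.00998). Their summed level was 1140 to 2130 CPM in BACHD+Foxp2 and 495 to 1966 CPM in BACHD+Con mice. The sum was 753 to 1872 CPM in Con+Foxp2 mice, against 524 to 2419 CPM in Con+Con mice. With the cortical level as a covariate, an alternative chosen after the data were seen, the averaged fall of Chat was -1.12 (adjusted p = 0.0142) and that of Slc17a8 -1.48 (adjusted p = 0.0421), both still called, while Slc5a7 was at -1.22 (adjusted p = 0.111). With the level of the 18 projection neuron genes as the covariate instead, Chat (-1.07, adjusted p = 0.0624), Slc17a8 (-1.45, adjusted p = 0.0872) and Slc5a7 (-0.99, adjusted p = 0.436) were no longer called. All 18 of these genes were themselves lower with the Foxp2 virus, with a median log2 fold change of -0.37. This covariate and the virus can therefore not be fully told apart in that fit.

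**Figure D4:**
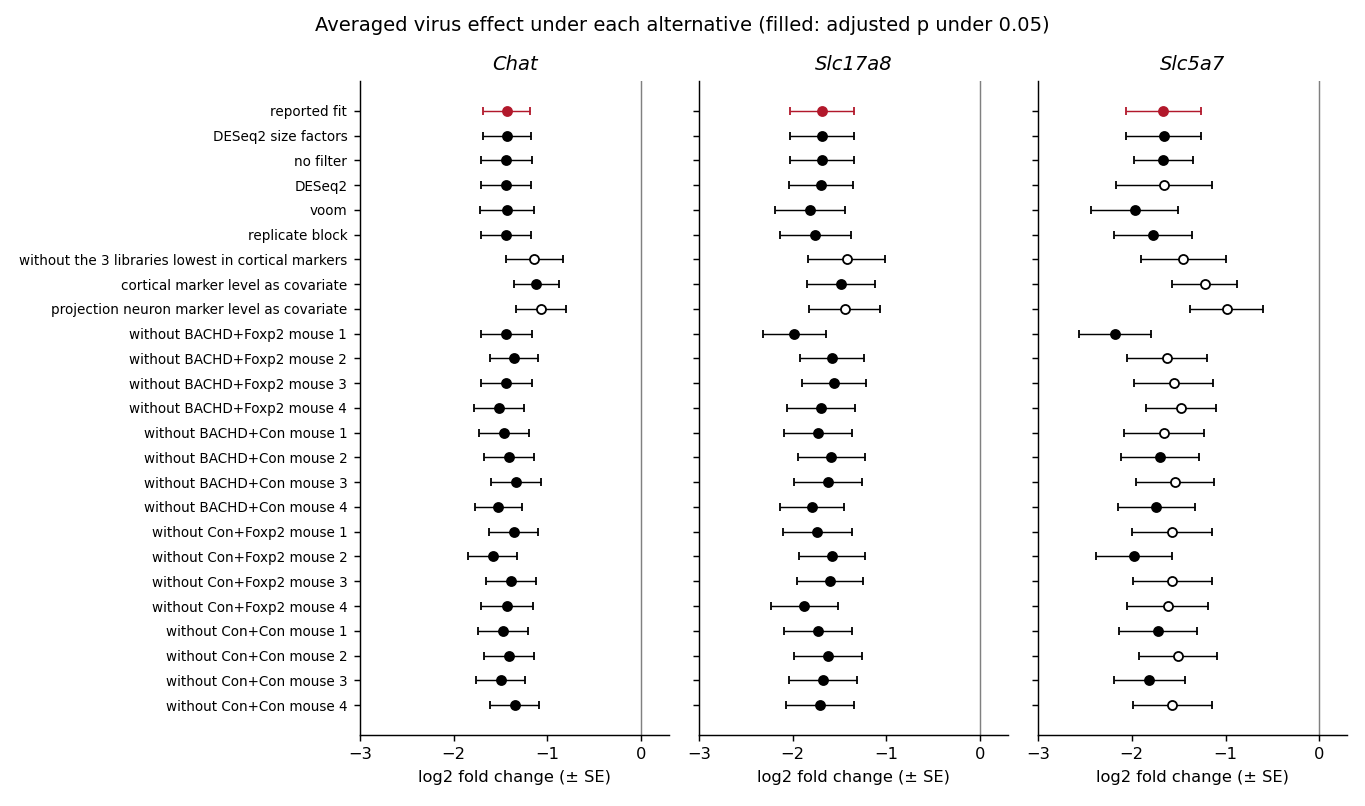
Averaged log2 fold change of the Foxp2 virus over the control virus, with its standard error, for Chat, Slc17a8 and Slc5a7 under each alternative, 1 per row, with filled points for an adjusted p under 0.05. All estimates are below 0, and Chat and Slc17a8 are open in the same 2 of 24 alternatives: when the 3 libraries low in cortical markers are left out, and with the projection neuron level as covariate.

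Members were also set against each other among mice of a group. Of the 15 pairs, 14 correlated positively over the 16 libraries with group means removed, with a median r of 0.36, and 0 pairs passed after adjustment over the 15. The strongest pair was Slc18a3 with Lhx8 (r = 0.65, permutation p = 0.0475, adjusted 0.453, rho = 0.60, permutation p = 0.0724, adjusted 0.393), at r = 0.47 without the 2 farthest libraries. Chat and Slc18a3, the nested pair, had r = 0.04 (permutation p = 0.921, adjusted 0.921) and rho = 0.12 (permutation p = 0.722, adjusted 0.774), and r = -0.0027 without the 2 farthest. Slc18a3 had 50 reads over the Foxp2 virus libraries and 140 over the control virus libraries, which limits this.

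Across the 16 libraries as they stand, the 5 genes most like Chat among 12834 genes (mean log2 CPM at or above 1) were Kmt2a (r = 0.88), Rtel1 (0.87), Clasrp (0.87), Pms1 (0.86) and Slc27a2 (0.85). For Slc5a7 the nearest were Sesn3, Sidt2 and Pcp4 (0.87 each), for Slc17a8 Parn (0.88), Sun2 (0.88) and Hip1r (0.87), and for Slc18a3 Ift172 (0.89), Tpcn1 (0.82) and Vps33a (0.82). Lhx8 was most like Dnajc9, Cep126 (0.85 each) and Irak3 (0.84), and Ache most like Col15a1 (0.87), Sgce (0.85) and Paip2 (0.81). No member was among the nearest of another. These values describe 16 points that share library depth and group differences.

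Other genes of cholinergic neurons were followed as a list of 14, of which 10 were tested. Averaged over genotypes, 9 of the 10 were lower with the Foxp2 virus, with a median log2 fold change of -0.71. Slc10a4, a synaptic vesicle protein of cholinergic and monoamine neurons, was called lower, at a mean of 2.31 CPM with the Foxp2 virus and 8.73 CPM with the control virus (log2 fold change -1.92, SE 0.44, adjusted p = 0.0286). Its call was lost when any 1 of 6 libraries was left out (BACHD+Foxp2 mouse 3, BACHD+Con mice 2 and 3, Con+Foxp2 mice 3 and 4 and Con+Con mouse 4), at adjusted p up to 0.0945, and without the 3 libraries low in cortical markers (-1.38, adjusted p = 0.506). Isl1, a LIM homeodomain partner of Lhx8, stood at -0.88 (adjusted p = 0.226), and Tacr1, the substance P receptor of these neurons, at -0.72 (adjusted p = 0.161). Gbx1, Gbx2, Drd5 and Chrna3 had 30 to 100 reads over all libraries and were not tested.

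The enzymes and carriers that supply or clear acetylcholine were followed as a list of 15, of which 14 were tested. Of these 9 were lower and 5 higher, with a median of -0.06 on the log2 scale, and 1 was called. Acly, which makes the acetyl coenzyme A used in the cytosol, fell 1.33-fold, to 165 CPM with the Foxp2 virus against 219 CPM with the control virus (log2 fold change -0.41, SE 0.08, adjusted p = 0.00917), with no overlap of the 8 and 8 mice. Without the 3 libraries low in cortical markers Acly was at -0.34 (adjusted p = 0.168). Prima1, which anchors acetylcholinesterase in the membrane, stood at -1.10 (adjusted p = 0.173), Bche, butyrylcholinesterase, at 0.90 (adjusted p = 0.420) and Pcyt1b at -0.21 (adjusted p = 0.661). Of 16 acetylcholine receptor genes 9 were tested, 0 were called by edgeR or DESeq2 (2 had an unadjusted p under 0.05) and the median was 0.02. Chrm3 stood at 0.86 (adjusted p = 0.270), Chrm4, the muscarinic receptor that is also the autoreceptor of these neurons, at -0.34 (adjusted p = 0.358), Chrna4 at 0.30 (adjusted p = 0.730) and Chrnb2 at 0.23 (adjusted p = 0.502).

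**Figure D5:**
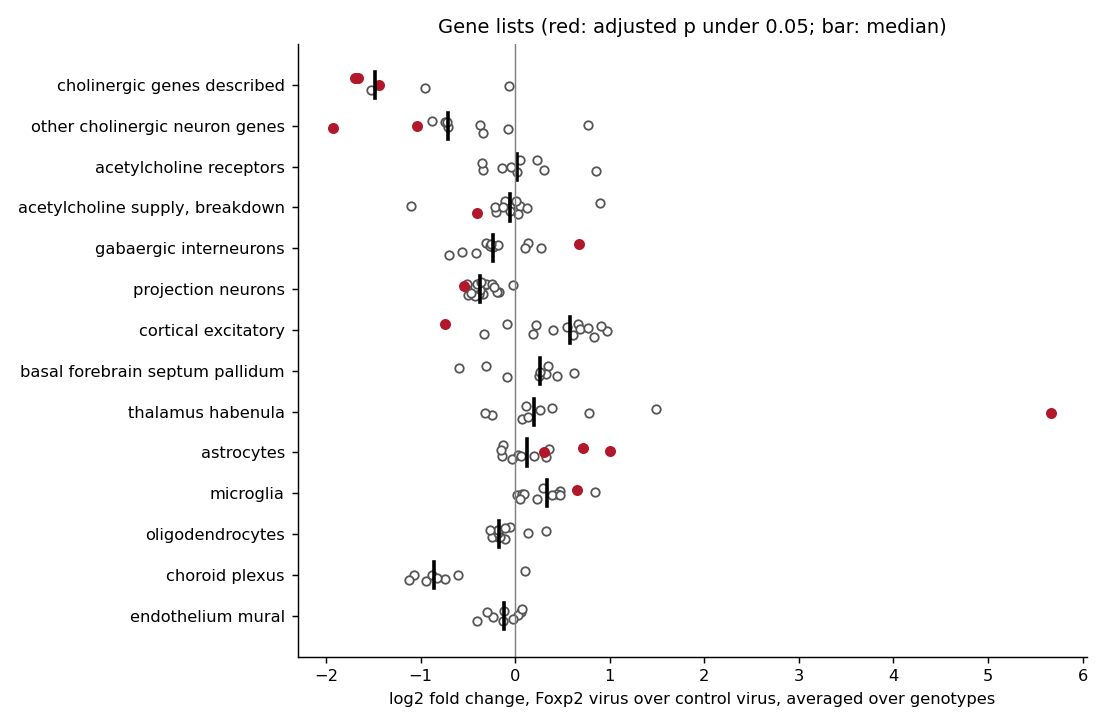
Log2 fold change of the Foxp2 virus over the control virus, averaged over genotypes, for each tested gene (points, red for an adjusted p under 0.05) of the cholinergic genes and of 13 other lists, with bars at the list medians. The medians are -1.48 for the 6 cholinergic genes, -0.71 for other cholinergic neuron genes, -0.23 for GABAergic interneuron genes and -0.37 for projection neuron genes.

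Other cells of the striatum and its neighbours were measured with the same contrast. Among 13 tested GABAergic interneuron genes, 9 were lower, the median was -0.23 and the only call was Elfn1 (0.67, adjusted p = 0.0452), which lost its call when any 1 library was left out (adjusted p up to 0.128) other than BACHD+Foxp2 mouse 4, Con+Foxp2 mice 1 and 4 and Con+Con mice 1 and 3. Elfn1 averaged 26.8 ± 5.58 CPM in BACHD+Foxp2 mice and 26.9 ± 3.16 CPM in BACHD+Con mice (SD, n = 4 each), and edgeR did not call it there (adjusted p = 1.00). It averaged 70.7 ± 23.8 CPM in Con+Foxp2 mice and 27.7 ± 7.54 CPM in Con+Con mice, where edgeR called it higher (log2 fold change 1.35, SE 0.23, adjusted p = 0.00792). The difference between the genotypes did not pass (-1.35, SE 0.33, adjusted p = 0.809 by edgeR). Pvalb (-0.70), Gad1 (-0.27) and Nos1 (-0.23) did not pass. All 18 projection neuron genes were lower, with a median of -0.37, and Ptpn5 was called (-0.54, adjusted p = 0.0161), a call lost without Con+Foxp2 mouse 3 (adjusted p = 0.0506) or 4 (0.0545), and without the 3 libraries low in cortical markers (-0.41, adjusted p = 0.272). Adcy5 (-0.47) and Scn4b (-0.43) were not called by edgeR. Of the 18 genes, 12 had an unadjusted p under 0.05 in edgeR, beside 1468 of the 13563 tested genes, and DESeq2 called 2. Without the 3 libraries low in cortical markers, 3 of the 18 had such a p in edgeR. Each difference between these lists and the cholinergic genes was not tested.

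Forebrain cholinergic neurons outside the striatum lie in the basal forebrain and septum, and Chat is also made in the medial habenula. Of the list for basal forebrain, septum and pallidum 9 of 13 genes were tested, 0 were called by edgeR or DESeq2, 0 had an unadjusted p under 0.05 and the median was 0.26. Of the thalamus and habenula list 10 of 11 were tested with a median of 0.20, and Pou4f1, a habenula transcription factor gene, rose to 9.05 CPM with the Foxp2 virus, against 0.365 CPM with the control virus (adjusted p = 7.91e-05). Astrocyte genes had a median of 0.13 with 3 of 12 called higher (Gfap, Aqp4 and Slc1a3), and microglia genes a median of 0.34 with 1 of 12 called higher (Ctss). The medians were -0.17 for oligodendrocytes, -0.86 for choroid plexus and -0.12 for endothelium and mural cells, with no call by edgeR or DESeq2 in any of these 3 lists and 1 gene at an unadjusted p under 0.05 (Olig2). The part of any of these cells in the fall of Chat, Slc5a7 and Slc17a8 was not tested.

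An overlapping gene can limit the count of Ache. Gm42456 shares 98 exon bases with Ache on the opposite strand. No source used here says whether strand was used in counting, and reads over those bases cannot be told apart. Gm2990, an antisense gene, overlaps the span of Chat but shares 0 exon bases with it in GENCODE M21.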

How the data were processed

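RNA was extracted with a lipid tissue kit and libraries were made with the SMARTer chemistry, per the labels' protocols. The authors deposited whole-number read counts per gene symbol for each of the 16 mice. Build mm10, STAR 2.4.0, HTSeq and DESeq2 are named per the submitters' processing notes. The authors also deposited 3 tables of log2 fold changes, p-values and adjusted p-values, read here only to set beside the values computed. HTSeq's closing lines were left out. Reads in genes were 22.5% to 24.7% of those listed, 33.8% to 37.2% were not unique and 38.7% to 43.4% hit no feature. Groups follow the labels.

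The counts were fitted with edgeR 4.0.16 in R 4.3.3 (TMM scaling, filterByExpr, a mean per group over all 16 libraries, 12 residual degrees of freedom, quasi-likelihood test, two-sided). Benjamini-Hochberg adjustment covered the 13563 genes tested, with calls under 0.05. Single genes also had two-sided exact permutation tests of log2 CPM (prior count 2), whose smallest p is 0.0286 for 4 against 4 mice and 0.000408 within both genotypes. Correlations used 100000 permutations within groups. Alternatives were DESeq2 size factors, no filter, DESeq2 1.42.0, voom in limma 3.58.1, only the groups compared, a block for the replicate number, each library left out, and the 3 libraries lowest in cortical markers left out. Covariate fits were added after seeing the data. The fit was tested on simulated counts. Named genes are all 6 members, up to 4 genes of each list with the lowest p for the averaged virus effect, every called list gene, and the 5 genes most like Chat and 3 most like each other member. Some genes that this rule names are not reported here. Members and lists were chosen with earlier results of these data known, so no list was tested as a set. Coordinates and lengths are from GENCODE M21 (GRCm38, which is mm10), counted from 1, and promoters from RefSeq. All 120 library pairs differed beyond counting error (chi-square per degree of freedom at least 4.34).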

Additional observations from a re-analysis of the deposited data

Results flagged for a closer look

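Of 24 sets of 4 mice (6 genes in 4 groups), 3 held a mouse far from the other 3 by Dixon's test, where chance gives about 1 in 20. Slc18a3 in Con+Con mouse 2 was high, at 7.40 CPM, beside 4.5 to 4.84 CPM in the other Con+Con mice. Lhx8 in Con+Con mouse 3 was low, at 3.86 CPM, beside 8.93 to 9.74 CPM in the others, and this library had the highest cortical marker level of all 16 (6.44). Ache in BACHD+Con mouse 2 was high, at 47.9 CPM, beside 34.4 to 36.2 CPM.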

How the results depend on the processing

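With the scaling of DESeq2 the called members were as many as in the reported fit. So they were in a fit of only the groups compared, run for the 4 comparisons of 2 groups alone. In control mice 1 member was called by DESeq2 and 1 without the filter (0 as reported). In BACHD mice 0 were called by voom and without the 3 libraries lowest in cortical markers (1 as reported), and 0 to 1 with a library left out, 0 only without BACHD+Con mouse 3. For the averaged virus effect 0 were called without those 3 libraries and 0 with the projection neuron covariate (3 as reported), and 2 to 3 with a library left out. List genes called numbered 11, against 6 without the 3 libraries and 7 with the projection neuron covariate. The causes were not tested.

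Genes called over the whole table for the virus numbered 31 in control mice (87 by DESeq2, 75 without the filter), 33 in BACHD mice (66 by DESeq2, 53 without the filter, 19 with only the groups compared, 6 without the 3 libraries) and 143 averaged (249 by DESeq2, 61 without the 3 libraries, 84 with the projection neuron covariate). For the genotype under the Foxp2 virus there were 8 (15 by DESeq2, 13 with either covariate). The genotype under the control virus gave 2 (1 with voom, with the replicate block or without the 3 libraries), and averaged over viruses 5 (9 by DESeq2, 8 without the filter or with the projection neuron covariate). The interaction gave 0 (4 by DESeq2, 3 without the filter, 2 with the cortical and 1 with the projection neuron covariate). With a library left out the virus count fell as low as 10 in control mice and 9 in BACHD mice.

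Some small differences changed sign. With the projection neuron covariate Ache was at 0.067 for the virus in control mice, 0.13 averaged and -0.10 for BACHD under the Foxp2 virus. Averaged Ache was at 0.056 without the 3 libraries and 0.077 with the cortical covariate. Lhx8 in BACHD mice was at 0.89 without the 3 libraries, 0.49 with the cortical and 0.092 with the projection neuron covariate. The Slc5a7 interaction was 0.0066 with the cortical covariate. Averaged Chrna4 was at -0.023 without the 3 libraries and -0.050 with the projection neuron covariate. With a library left out, Ache ran from -0.18 to 0.01 averaged and from -0.017 to 0.20 in BACHD mice. For BACHD under the control virus, Slc5a7 ran from -0.56 to 0.045, Slc18a3 from -0.016 to 0.44, Slc17a8 from -0.27 to 0.13 and Lhx8 from -0.70 to 0.023. Under the Foxp2 virus, Slc5a7 ran from -1.40 to 0.26, Slc17a8 from -0.049 to 0.93, Lhx8 from -0.33 to 1.24 and Ache from -0.12 to 0.24. The interaction ran from -1.14 to 0.53 for Slc5a7 and from -0.015 to 1.55 for Lhx8.

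Mice with the same replicate number did not pair: over 24 such pairs of libraries the correlation of deviations ran from -0.17 to 0.10, median -0.01. With the replicate block 3 members were called for the averaged virus effect (adjusted p 0.00987 for Chat, 0.0271 for Slc17a8 and 0.0447 for Slc5a7), and in BACHD mice Chat (0.0273). Depth limits Slc18a3 and Lhx8 most, at 0 to 33 reads per library.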
